A study of Mus musculus with 82 samples.

Results

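The genes described here make, store and receive transforming growth factor beta (TGF-beta) in primary mouse aortic vascular smooth muscle cells (aVSMC). They are a list of 10 genes, found by symbol among the 55401 genes of the count tables. The list holds the ligand genes Tgfb1, Tgfb2 and Tgfb3, the latent binder genes Ltbp1, Ltbp2, Ltbp3 and Ltbp4, the receptor genes Tgfbr1 and Tgfbr3, and the inhibitor gene Smad7. All 10 passed the filter on low counts at 24 h and at 48 h, among 14653 and 15796 genes. Tgfbr2 and Smad3, which encode the type II receptor and a signal transducer, lie on chromosome 9 and are listed at a count of 0 in all 82 libraries, so no value is given for them.

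The cultures came from aortas of C57BL/6 mice and were kept without serum and supplements for 24 h before the incubations. EGF (10 µg/L) activates the EGF receptor, AngII (10 nM) the AT1 receptor, and U46619 (1 µM), a stable analog of thromboxane, the thromboxane receptor TP. After 24 h incubation there were 7 groups with 1 culture from each of 6 mice, namely the control, the incubations with U46619, AngII or EGF alone, EGF combined with AngII (EGF+AngII) or with U46619 (EGF+U46619), and all 3 substances (EGF+AngII+U46619). After 48 h, the EGF/U46619 batch (control, EGF, U46619, EGF+U46619) and the EGF/AngII batch (control, EGF, AngII, EGF+AngII) held 5 cultures of each of their groups, so that control and EGF had n = 10 and the other groups n = 5. A culture set of 48 h holds the cultures of the same batch and replicate number. The labels number 5 mice for the 10 culture sets, so some sets share a mouse, and mice 7 and 10 are in both batches. By the labels, mouse 7 gave replicates 1 and 4 of the EGF/U46619 batch and replicates 1, 2 and 5 of the EGF/AngII batch. Mouse 10 gave replicate 5 of the EGF/U46619 batch and replicate 4 of the EGF/AngII batch. The methods give each replicate its own mouse, and n after 48 h therefore counts cultures. The growth medium used before the serum-free period contained EGF for every group.

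TGF-beta is secreted in an inactive form, in which the mature dimer stays wrapped in its own propeptide. The latent binders, encoded by Ltbp genes, attach this complex to fibrillin and other fibres of the matrix, from which integrins, thrombospondin or proteases can set the ligand free. The free ligand binds the type II receptor, which recruits and phosphorylates the type I receptor TGFBR1, and the signal runs through SMAD2 and SMAD3 to the nucleus. TGFBR3 (betaglycan) presents the ligand to the other receptors, and SMAD7 is an inhibitor that the pathway itself induces. In the aortic wall, this pathway is known for its part in matrix synthesis, smooth muscle differentiation and inherited aneurysm.

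The latent binder genes divided after 24 h incubation with U46619 into a rising pair, Ltbp1 and Ltbp2, and a falling pair, Ltbp3 and Ltbp4. Their promoters are therefore shown, each from 250 bases before to 50 bases after a transcription start of RefSeq on GRCm38.p6. They are written 5′ to 3′ on the strand of the gene, and capitals mark matches on either strand to the AP-1 site TGANTCA, the SMAD element CAGAC, the SMAD palindrome GTCTAGAC, the cAMP response element TGACGTCA, the TEAD site CATTCC and the SRF site (CArG box). Where matches overlap, as AP-1 and CAGAC do in Ltbp3, they form 1 run of capitals.
Ltbp1 (chr17:75005279-75005578, plus strand, upstream start): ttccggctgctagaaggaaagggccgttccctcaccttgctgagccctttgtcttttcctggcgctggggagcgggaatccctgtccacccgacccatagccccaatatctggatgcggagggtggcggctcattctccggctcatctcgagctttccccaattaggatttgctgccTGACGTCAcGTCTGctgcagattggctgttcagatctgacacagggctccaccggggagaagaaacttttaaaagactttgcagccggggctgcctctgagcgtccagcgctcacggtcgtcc
Ltbp2 (chr12:84876442-84876741, minus strand): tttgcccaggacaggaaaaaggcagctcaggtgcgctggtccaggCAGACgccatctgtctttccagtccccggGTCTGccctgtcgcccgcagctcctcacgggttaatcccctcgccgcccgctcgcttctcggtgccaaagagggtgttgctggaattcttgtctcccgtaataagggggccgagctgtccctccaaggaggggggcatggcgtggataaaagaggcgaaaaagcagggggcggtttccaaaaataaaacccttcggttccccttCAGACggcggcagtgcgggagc
Ltbp3 (chr19:5740650-5740949, plus strand): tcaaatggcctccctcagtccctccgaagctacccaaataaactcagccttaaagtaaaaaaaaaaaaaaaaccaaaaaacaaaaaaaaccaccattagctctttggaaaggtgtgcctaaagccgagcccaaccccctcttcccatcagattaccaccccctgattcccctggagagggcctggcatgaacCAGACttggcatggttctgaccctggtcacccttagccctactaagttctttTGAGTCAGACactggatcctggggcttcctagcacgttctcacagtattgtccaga
Ltbp4 (chr7:27337563-27337862, minus strand, upstream start): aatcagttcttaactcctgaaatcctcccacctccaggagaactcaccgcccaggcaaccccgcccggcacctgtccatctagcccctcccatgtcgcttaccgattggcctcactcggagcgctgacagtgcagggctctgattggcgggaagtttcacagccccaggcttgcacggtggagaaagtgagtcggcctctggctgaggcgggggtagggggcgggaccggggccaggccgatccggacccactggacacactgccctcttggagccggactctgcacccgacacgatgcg

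The Ltbp1 window held 1 TGACGTCA and 1 CAGAC, and the Ltbp2 window held 3 CAGAC. The Ltbp3 window held 1 AP-1 site, starting at position -6 from the transcription start, and 2 CAGAC. The Ltbp4 window held none of the marked motifs. Over all 32851 promoter windows of 300 bases, CAGAC occurred in 49.6%, TGANTCA in 7.81%, TGACGTCA in 1.79%, CATTCC in 14.7%, the CArG box in 1.63% and GTCTAGAC in 0.213%. These matches are a description of letters, and no binding was measured. Windows were taken for 7 of the 10 genes, and a second Ltbp1 start further downstream held 2 CAGAC.

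Libraries held 16483529 to 20818809 counts at the 24 h time point and from 19936925 up to 33916114 at 48 h. A member had from 9 counts (Ltbp2) to 24648 counts (Tgfb3) in a library. Levels are given in FPM, fragments per 1000000 of a library size scaled by the TMM method, and a log2-fold change is that of edgeR ± its standard error. A gene is called when its FDR is under 0.05 in edgeR's quasi-likelihood test and in DESeq2's Wald test, with at least 5 FPM on average in 1 of the groups compared. After 48 h, 1 control library stood apart (replicate 4 of the EGF/AngII batch). Its deviations from the group means had a median correlation of -0.279 with those of the other cultures of its set, against a median of 0.809 over all 60 pairs. In that set, Ltbp2 was 167.3 FPM in this control and 44.9 to 55.6 FPM in the stimulated cultures. Tgfb2 was 72.6 FPM in this control against 17.1 to 23.9 FPM. The members' log2-fold changes against control named for U46619, EGF+U46619 and EGF after 48 h are therefore also given without this library. Those of markers and other genes are given only with it.

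The smooth muscle label was checked with 10 markers. In the 24 h control cultures, Acta2 (smooth muscle actin) ran from 1149 to 4949 FPM and Myh11 (smooth muscle myosin) from 2.68 to 90.9 FPM, whereas Myocd, which encodes the coactivator myocardin, was at most 3.01 FPM. The summed level of 8 fibroblast markers was 724 to 3648 FPM and that of 7 endothelial markers 4.85 to 2151 FPM in these controls, with Cdh5 listed at 0 in every library. Leukocyte markers summed to 16.8 to 110 FPM, nearly all of it Lyz2, while Ptprc was at 0 in the 24 h controls. Libraries of mixed cells cannot tell fewer cells of a type from less RNA per cell. These sums moved with U46619 after 24 h. The smooth muscle sum was 6059 to 21020 FPM (median 15540, against 4371 in control), with 4 of 9 tested markers called higher and a median log2-fold change of 0.29 over the 9, and the fibroblast sum was 239 to 2289 FPM (median 504 against 987), with 7 of 8 markers called lower. With EGF+U46619, 2 smooth muscle markers were called higher and 2 lower. The endothelial sum had medians of 191 FPM with U46619 and 239 FPM in control (median log2-fold change -0.40 over 6 tested markers), and Lyz2, the only leukocyte marker tested, was called lower (-1.31). The part of these shifts in the results on the TGF-beta genes was not tested.

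Compared per kilobase of exon in the 24 h control cultures, Tgfb3, Ltbp3 and Ltbp4 were the most abundant members. Their levels were 56.1 ± 30.6, 52.6 ± 18.1 and 49.7 ± 29.7 FPM per kb (SD, n = 6). Tgfb1 (18.1 ± 7.06 FPM per kb), Tgfbr3 (16.6 ± 9.71), Smad7 (16.05 ± 12.5) and Ltbp1 (10.3 ± 12.7) followed. Tgfb2 (7.48 ± 3.73 FPM per kb), Tgfbr1 (4.76 ± 3.10) and Ltbp2 (4.64 ± 6.07) were lowest. Each gene of this order exceeded the next in only 3 or 4 of 6 cultures, so no neighbours were separated beyond the spread between mice. In the 10 controls of 48 h, Tgfb3 (49.2 ± 22.3 FPM per kb) and Ltbp3 (39.6 ± 8.27) again led, and Ltbp3 exceeded the next gene, Smad7 (24.0 ± 9.69), in 10 of 10 cultures. Ltbp4 was 16.9 ± 4.33 FPM per kb there. The 24 and 48 h cultures were sequenced and scaled separately and come from differently numbered mice, so that time, batch and mouse cannot be told apart between them.

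Tgfb3 (ENSMUSG00000021253, chr12:86056745-86079041 of GRCm38, minus strand) encodes the ligand with the highest RNA level here, and it rose with U46619 after 24 h. Its lowest, median and highest levels were 107, 154.7 and 389 FPM in control and 171.7, 499 and 1357 FPM with U46619. The groups overlapped, but within each of the 6 mice the culture with U46619 was higher, by 1.59 ± 0.95 (SD, n = 6) on the scale of log2(FPM + 0.5). The log2-fold change was 1.58 ± 0.40, a 2.98-fold rise (FDR = 0.00295, edgeR). With EGF+U46619, the lowest, median and highest levels were 64.8, 403 and 1016 FPM. There the log2-fold change was 1.15 ± 0.40 (FDR = 0.0216, edgeR), and 5 of 6 mice were higher than their control. The exception was mouse 3, in which Tgfb3 was 127 FPM in control, 64.8 FPM with EGF+U46619 and 51.6 FPM with EGF+AngII+U46619. With all 3 substances, Tgfb3 rose by 1.22 ± 0.40 (FDR = 0.0144, edgeR). The calls with EGF+U46619 and with all 3 substances were lost without replicate 1, 2 or 4, and the change with EGF+U46619 was then as low as 0.78 (without replicate 2). Both calls were also lost with only the groups compared in the fit. Of the exon bases of Tgfb3, 12.4% overlap genes on the opposite strand (Gm37804 and Gm48008), whose reads cannot be told apart without strand.

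Tgfb2 (ENSMUSG00000039239, chr1:186622792-186705989, minus strand) encodes a ligand that also needs the co-receptor betaglycan for efficient binding. It was 14.3, 43.7 and 78.2 FPM (lowest, median and highest) in control and 31.9, 47.0 and 143 FPM with U46619. Its log2-fold change of 0.52 ± 0.23 did not pass the threshold (FDR = 0.0756, edgeR), and 4 of 6 mice were higher. It was called without replicate 3 (0.68). With EGF+U46619 it was 0.12 ± 0.23 (FDR = 0.718, edgeR). Tgfb1 (ENSMUSG00000002603, chr7:25687002-25705077, plus strand), the ligand best known from fibrosis, was 47.2 to 141 FPM in control and 52.7 to 122 FPM with U46619. Its log2-fold changes were -0.06 ± 0.18 with U46619, -0.05 ± 0.18 with EGF+U46619 and 0.31 ± 0.18 with all 3 substances, none of them called (FDR = 0.814, 0.856 and 0.161, edgeR). With all 3 substances, Tgfb1 ranged from 0.03 (without replicate 3) to 0.50 (without replicate 1, called). Tgfb2 ranged from 0.09 (without replicate 6) to 0.58 (without replicate 3, called).

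The make-up of ligand RNA is given as shares per group. Per kilobase, Tgfb3 made up 66.9% ± 12.9 (SD, n = 6) of the summed ligand RNA in the 24 h controls and 82.3% ± 11.2 with U46619, while Tgfb1 made up 23.6% ± 9.52 and 10.9% ± 6.79. The summed level ran from 54.6 to 137 FPM per kb in control and from 72.6 to 419 FPM per kb with U46619. With EGF alone the Tgfb3 share was 60.8% ± 15.4. After 48 h, it was 63.1% ± 12.9 (n = 10) in control, 66.2% ± 9.50 (n = 5) with U46619 and 58.6% ± 9.69 (n = 5) with EGF+U46619. The 48 h controls pool both batches, whereas both groups with U46619 come from the EGF/U46619 batch alone. Their shares are thus not matched by culture set. None of these shares was tested.

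**Figure D1:**
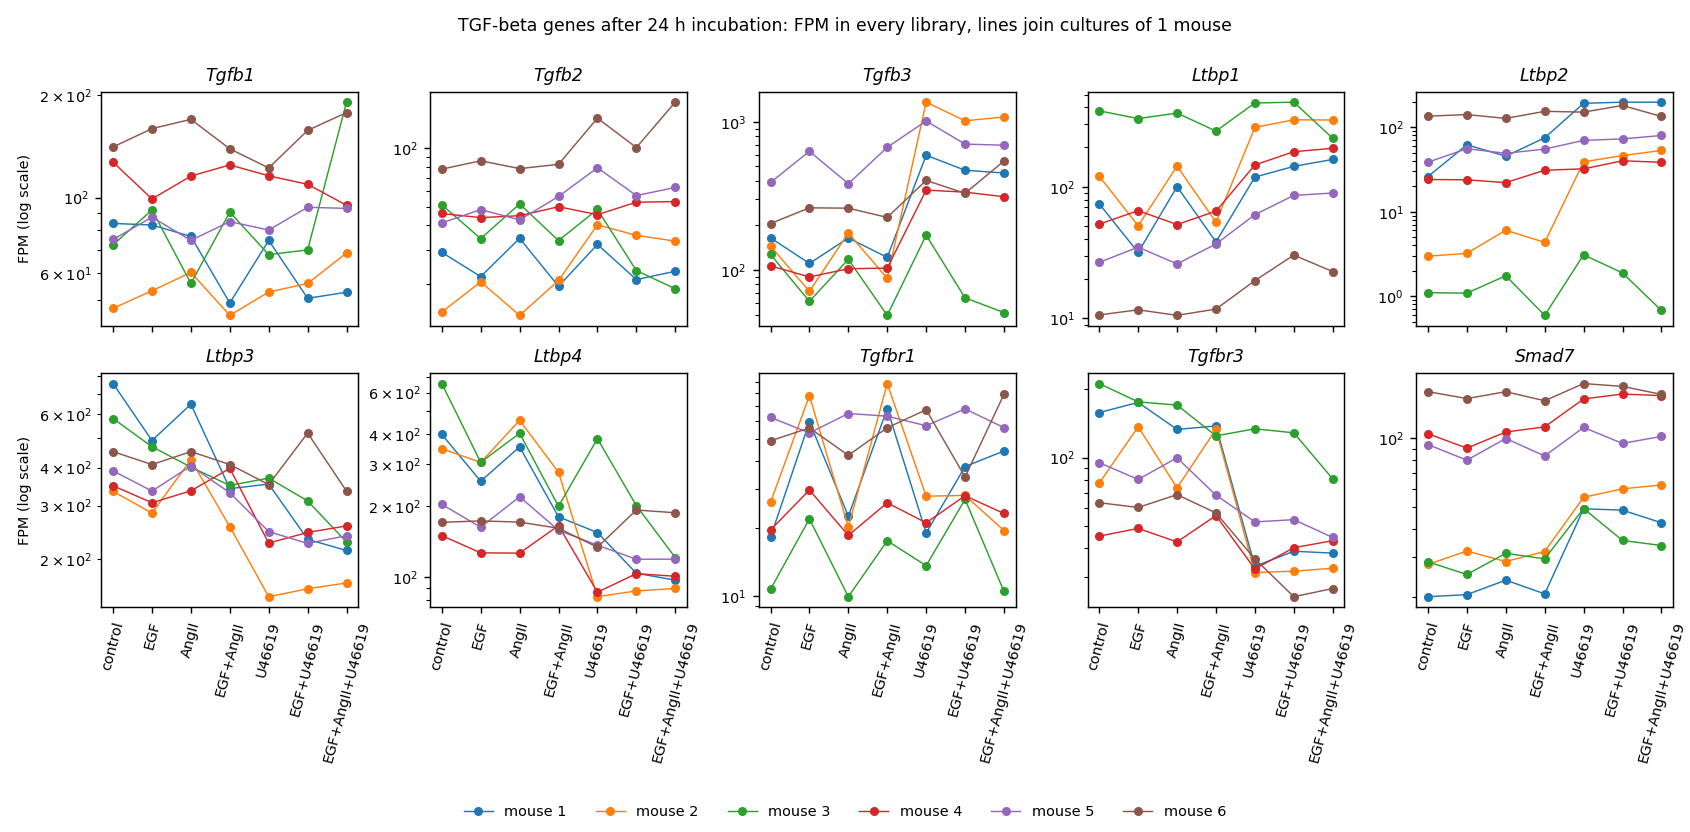
FPM of the 10 genes (log axis, own range in each panel) in each of the 42 libraries after 24 h incubation, by group, with a line for each mouse. In most mice, Tgfb3, Ltbp1, Ltbp2 and Smad7 step up and Ltbp3, Ltbp4 and Tgfbr3 step down between the groups without and with U46619. Some mice go the other way in the combinations, such as 2 of 6 for Ltbp2 between control and EGF+AngII+U46619. The controls alone span 10.6 to 377 FPM for Ltbp1 and 1.10 to 135 FPM for Ltbp2.

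**Figure D2:**
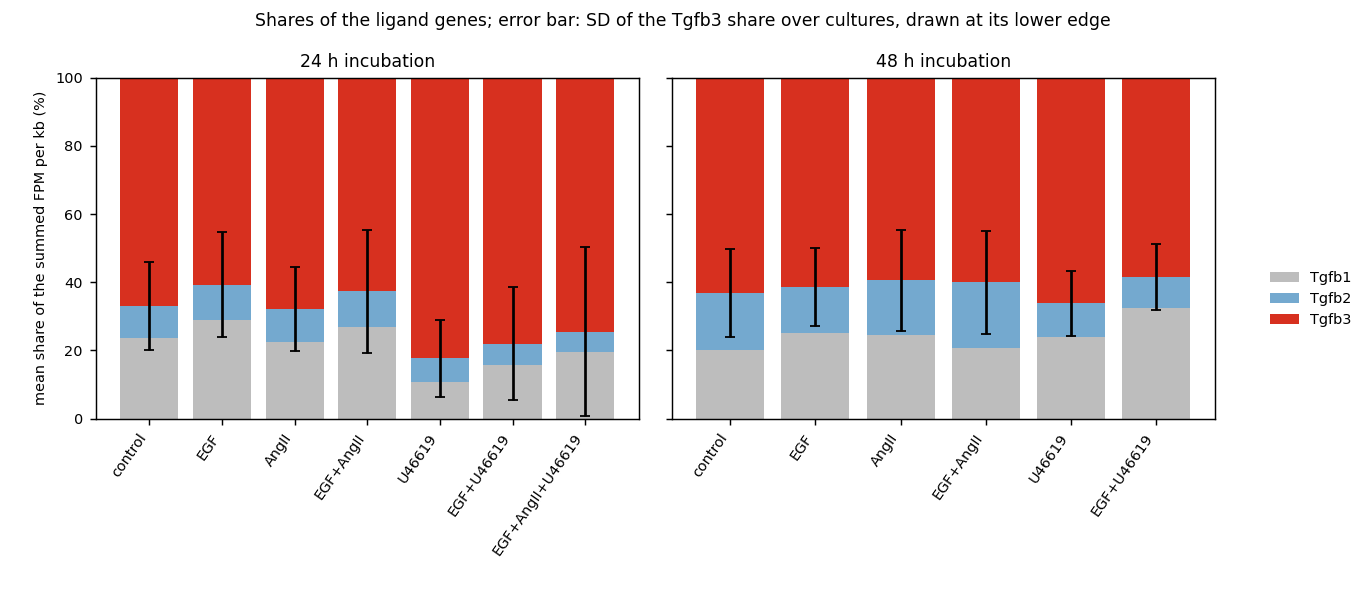
Mean share of Tgfb1, Tgfb2 and Tgfb3 in their summed FPM per kb (%, stacked bars from 0) in each group after 24 h (n = 6) and 48 h (n = 10 for control and EGF, otherwise 5), with the SD of the Tgfb3 share drawn at its lower edge. The Tgfb3 share was 82.3% with U46619 against 66.9% in control after 24 h, and 66.2% against 63.1% after 48 h. The 48 h controls pool both batches, and the 48 h groups with U46619 come from the EGF/U46619 batch alone.

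With U46619 after 24 h, 7 of the 10 genes were called, 4 higher and 3 lower, while 37.4% of the 10415 genes tested were called (1870 higher and 2023 lower). The median absolute log2-fold change was 0.85 over the members and 0.34 over all genes tested. The same 7 genes were called with EGF+U46619, where 44.6% of genes were called, and with EGF+AngII+U46619, where 46.3% were. These 3 comparisons share the control cultures.

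Ltbp1 (ENSMUSG00000001870, chr17:75005568-75392512, plus strand) encodes the binder that was first found with latent TGF-beta. It was 10.6, 63.1 and 377 FPM (lowest, median and highest) in control, 19.4, 132 and 432 FPM with U46619 and 30.3, 163.6 and 438 FPM with EGF+U46619. The mice spanned a wider range than the treatments, yet each of the 6 mice was higher with U46619 and with EGF+U46619 than in its control. Ltbp1 rose by 0.92 ± 0.26 on the log2 scale with U46619 (FDR = 0.0072, edgeR), 1.25 ± 0.27 with EGF+U46619 (FDR = 0.000386, edgeR) and 1.16 ± 0.27 with all 3 substances (FDR = 0.000714, edgeR). Mouse 3, with the highest control level, differed least, by 0.20 with U46619 and 0.22 with EGF+U46619 on the scale of log2(FPM + 0.5). With all 3 substances, 5 mice were higher than their control and 1 was lower, at -0.69 on that scale.

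Ltbp2 (ENSMUSG00000002020, chr12:84783212-84876532, minus strand) encodes a binder-like protein of elastic microfibrils that does not bind latent TGF-beta. It was 1.10, 25.1 and 135 FPM (lowest, median and highest) in control, 3.09, 54.4 and 192 FPM with U46619 and 1.89, 59.4 and 198 FPM with EGF+U46619. In mouse 3, Ltbp2 stayed between 0.594 and 3.09 FPM in all 7 groups. Its log2-fold change was 1.49 ± 0.43 with U46619 (FDR = 0.00737, edgeR), higher in 6 of 6 mice. It was 1.55 ± 0.43 with EGF+U46619 (FDR = 0.00411, edgeR), again in 6 of 6 mice, and 1.51 ± 0.43 with all 3 substances (FDR = 0.00518, edgeR), in 4 of 6 mice. Mice 1 and 2 rose most, from 26.1 to 192 FPM and from 3.00 to 38.9 FPM with U46619. Without replicate 1, Ltbp2 was no longer called with U46619 or with all 3 substances, and without replicate 2 the change with all 3 substances was 0.94. The call with all 3 substances was also lost with only the groups compared in the fit. Of its exon bases, 9.34% overlap D030025P21Rik on the opposite strand.

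Ltbp3 (ENSMUSG00000024940, chr19:5740904-5758532, plus strand) and Ltbp4 (ENSMUSG00000040488, chr7:27305136-27337692, minus strand) fell. Ltbp3, whose product is secreted together with latent TGF-beta, was 334, 421 and 757 FPM in control, 150, 299 and 370 FPM with U46619 and 160, 238 and 520 FPM with EGF+U46619 (lowest, median and highest). It was lower with U46619 in 6 of 6 mice, with a log2-fold change of -0.77 ± 0.17 (FDR = 0.00079, edgeR). With EGF+U46619 the log2-fold change was -0.78 ± 0.17 (FDR = 0.000499, edgeR), lower in 5 of 6 mice, and with all 3 substances it was -0.97 ± 0.17 (FDR = 3.76e-05, edgeR), lower in 6 of 6.

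Ltbp4, whose product also organises elastic fibres, was 150, 276 and 655 FPM in control, 83.0, 135 and 384 FPM with U46619 and 87.8, 112 and 201 FPM with EGF+U46619 (lowest, median and highest). Ltbp4 changed by -0.97 ± 0.27 on the log2 scale with U46619 (FDR = 0.00628, edgeR), -1.12 ± 0.27 with EGF+U46619 (FDR = 0.00152, edgeR) and -1.24 ± 0.28 with all 3 substances (FDR = 0.000542, edgeR). It was lower in 6 of 6 mice with U46619, and in 5 of 6 with each combination that contained it. Mouse 6 was the exception in both combinations, at 170.6 FPM in control, 192 FPM with EGF+U46619 and 187.2 FPM with all 3 substances. Of the summed Ltbp RNA per kilobase, Ltbp3 and Ltbp4 made up 47.1% ± 10.3 and 40.5% ± 9.53 in control and 38.8% ± 8.72 and 28.6% ± 7.87 with U46619 (SD, n = 6). The share of Ltbp1 was 7.36% ± 6.06 in control and 19.9% ± 15.2 with U46619.

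**Figure D3:**
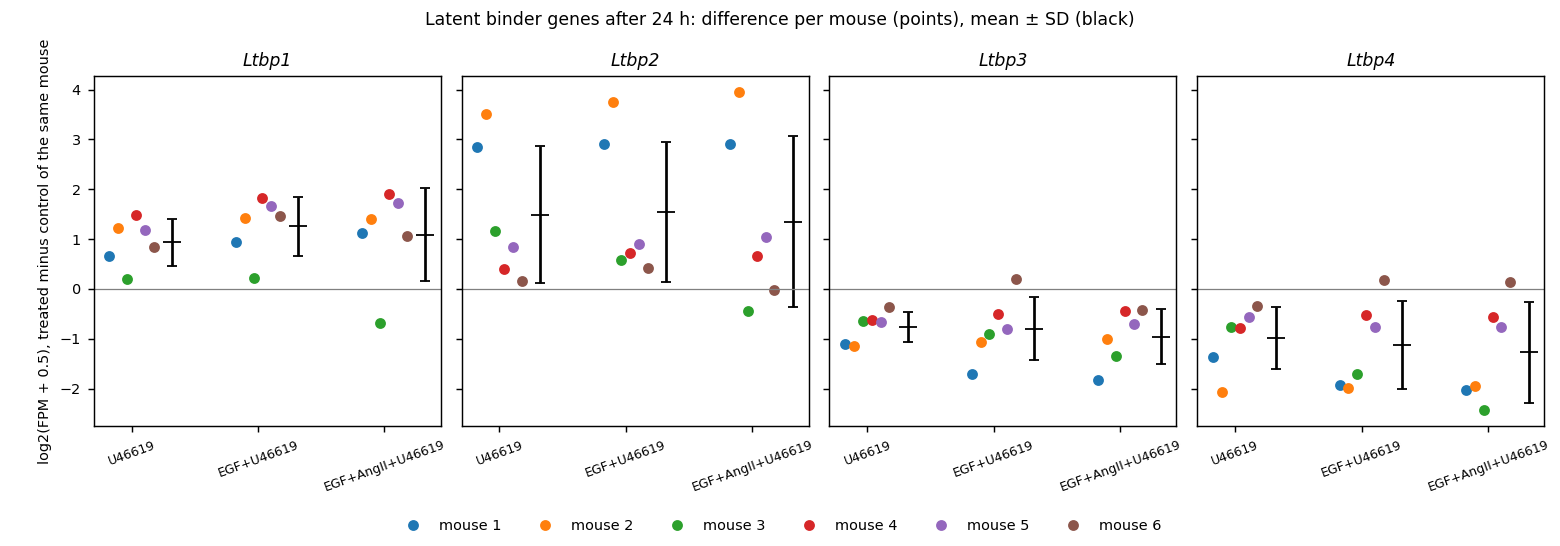
Difference in log2(FPM + 0.5) between the treated and the control culture of the same mouse for the Ltbp genes after 24 h, one point per mouse for U46619, EGF+U46619 and EGF+AngII+U46619, with the mean ± SD over 6 mice in black. Ltbp1 and Ltbp2 lie above 0 and Ltbp3 and Ltbp4 below 0 in all 6 mice with U46619, and single mice cross the line in the combinations.

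Tgfbr3 (ENSMUSG00000029287, chr5:107106570-107289629, minus strand), the gene of betaglycan, fell after 24 h in every mouse with each incubation that contained U46619. Its levels were 45.3, 86.1 and 211 FPM in control, 31.3, 34.7 and 134 FPM with U46619 and 24.5, 39.6 and 129 FPM with EGF+U46619 (lowest, median and highest). Tgfbr3 changed by -1.02 ± 0.24 on the log2 scale with U46619 (FDR = 0.00154, edgeR), -1.03 ± 0.24 with EGF+U46619 (FDR = 0.000967, edgeR) and, with all 3 substances, -1.16 ± 0.24 (FDR = 0.000271, edgeR). Tgfbr1 (ENSMUSG00000007613, chr4:47353222-47414931, plus strand), the type I receptor gene, was 10.7 to 62.5 FPM in control and 13.7 to 67.6 FPM with U46619, a log2-fold change of 0.17 ± 0.27 (FDR = 0.663, edgeR). The fibroblast markers fell in the same groups as Tgfbr3, Ltbp3 and Ltbp4, with a median log2-fold change of -1.32 with U46619, and their part in these falls was not tested.

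Smad7 (ENSMUSG00000025880) rose, by less than Tgfb3, Ltbp1 and Ltbp2. It was 20.1, 61.2 and 160 FPM in control, 48.9, 83.2 and 174.1 FPM with U46619 and 35.5, 77.4 and 169.1 FPM with EGF+U46619 (lowest, median and highest). Each of the 6 mice was higher with U46619 and with EGF+U46619, by 0.65 ± 0.44 and 0.55 ± 0.52 (SD, n = 6) on the scale of log2(FPM + 0.5). The log2-fold changes were 0.65 ± 0.14 (FDR = 0.000823, edgeR), 0.56 ± 0.14 (FDR = 0.00214, edgeR) and 0.52 ± 0.14 with all 3 substances (FDR = 0.0038, edgeR). The call with all 3 substances was lost without replicate 2. With only the groups compared in the fit, Smad7 was called with U46619 and neither with EGF+U46619 (0.55) nor with all 3 substances (0.53).

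EGF alone, AngII alone and EGF+AngII called none of the 10 genes after 24 h. With EGF, where 0.0386% of all genes were called, 1 member passed 0.05 in both tools before adjustment, and edgeR alone and DESeq2 alone gave 0. With AngII, where 0% were called, 0 members did so, and each tool alone gave 0. With EGF+AngII, where 4.39% were called, 3 members did so, edgeR alone called 0 and DESeq2 alone 1. That gene was Tgfbr1. It was 10.7, 22.9 and 62.5 FPM (lowest, median and highest) in control, 22.1, 54.7 and 78.2 FPM with EGF and 17.6, 59.8 and 88.5 FPM with EGF+AngII. Mice 1 and 2 had the largest differences, from 18.3 to 59.7 FPM and from 26.1 to 78.2 FPM with EGF, and mouse 5 was lower with EGF. The log2-fold change was 0.85 ± 0.27 with EGF (FDR = 0.115 from edgeR, 0.0718 from DESeq2), higher in 5 of 6 mice. With EGF+AngII it was 0.89 ± 0.27 (FDR = 0.0573 from edgeR, 0.0209 from DESeq2), higher in 6 of 6, and both tools called it without replicate 6 (1.06). With EGF+U46619 Tgfbr1 was 26.97 to 68.2 FPM, a log2-fold change of 0.47 ± 0.27 (FDR = 0.165, edgeR).

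Whether EGF altered the effect of U46619 was compared directly. Between EGF+U46619 and U46619, 0 members were called after 24 h, as were 0% of all genes, and 0 members passed 0.05 in both tools before adjustment. The differences ranged from -0.43 ± 0.39 (Tgfb3) to 0.33 ± 0.26 (Ltbp1) on the log2 scale. Within mice, Tgfb3 was lower in 6 of 6 and Ltbp1 higher in 6 of 6 with the combination. The interaction of EGF and U46619 likewise gave 0 members (0% of all genes; 0 members past 0.05 in both before adjustment), with values from -0.54 ± 0.38 (Tgfbr1) to 0.58 ± 0.37 (Ltbp1). Each tool alone also gave 0 in both comparisons.

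Between EGF+U46619 and EGF, 5 members were called, and 18.1% of all genes were. Ltbp1 (1.503 ± 0.27; FDR = 0.000399, edgeR), Tgfb3 (1.38 ± 0.40; FDR = 0.0169, edgeR), Ltbp2 (1.25 ± 0.42; FDR = 0.0362, edgeR) and Smad7 (0.66 ± 0.14; FDR = 0.00196, edgeR) were higher with the combination, and Tgfbr3 was lower (-1.15 ± 0.24; FDR = 0.00164, edgeR). Ltbp3, at -0.47 ± 0.17, missed the threshold in edgeR (FDR = 0.0503) and not in DESeq2 (FDR = 0.0479). Tgfb3 and Ltbp2 were not called without replicate 1, 2 or 4, and Ltbp2 was not without replicate 5, whereas Ltbp3 and Ltbp4 were called without replicate 6. Without replicate 2 the value of Ltbp2 was 0.80. Tgfb3 and Ltbp2 were also not called with only the groups compared in the fit.

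**Figure D4:**
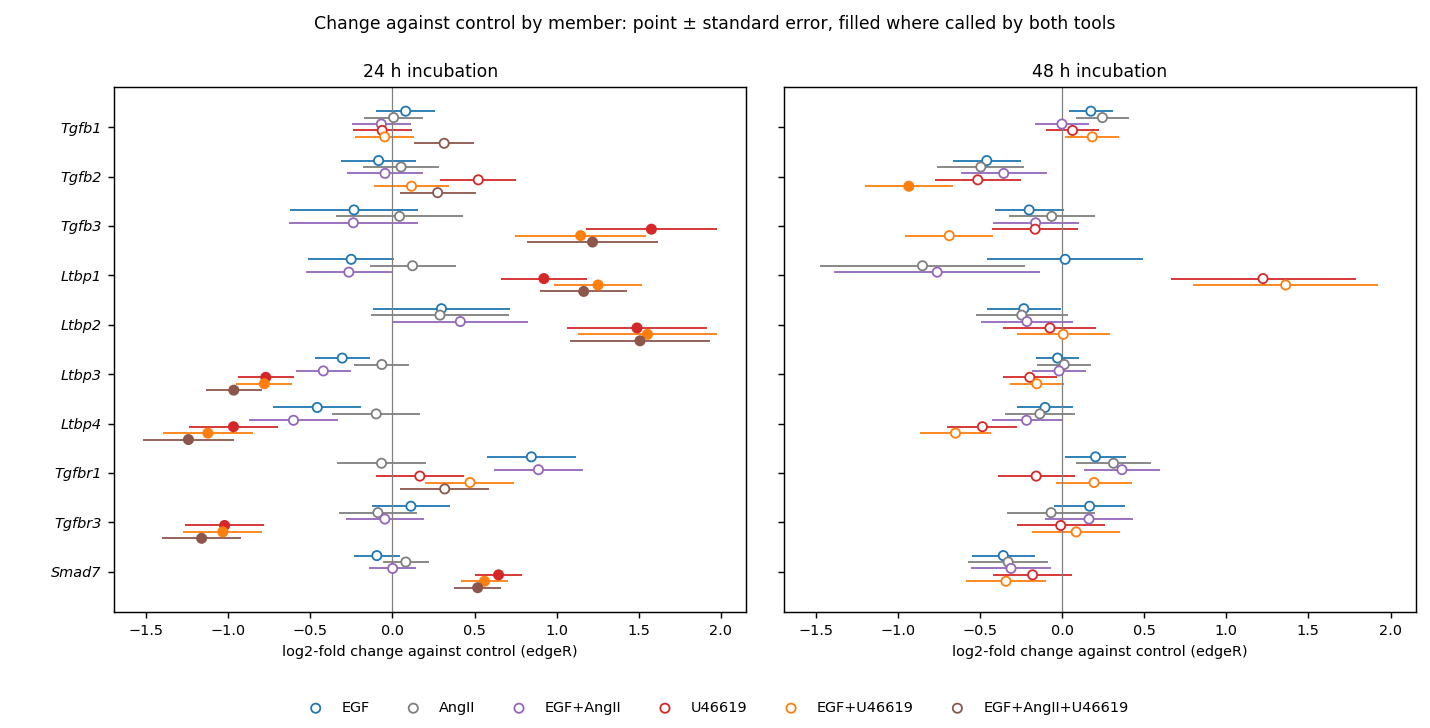
Log2-fold change against control (edgeR, ± standard error) of each gene for each incubation, after 24 h on the left and 48 h on the right, with filled points where both tools called the gene. After 24 h, 7 genes have filled points in each of the 3 incubations with U46619, and after 48 h the only filled point is Tgfb2 with EGF+U46619 at -0.93.

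After 48 h incubation, 1 pair of member and incubation was called against control. It was Tgfb2 with EGF+U46619, where 9.49% of all genes were called. Tgfb2 was 18.9, 65.1 and 147 FPM (lowest, median and highest, n = 10) in control. With EGF+U46619 the 5 cultures were at 50.3, 9.02, 27.5, 19.2 and 30.5 FPM (replicates 1 to 5), each below the control of its own set, which was 64.9, 18.9, 38.7, 50.6 and 71.0 FPM. The log2-fold change was -0.93 ± 0.27 (FDR = 0.0267, edgeR), and -0.87 ± 0.27 without the control library that stood apart (FDR = 0.0427, edgeR). The call was lost without replicate 2, 3 or 4 of the EGF/U46619 batch and when both mouse and batch were terms. With U46619 alone, 0 members were called and 5.59% of all genes were. In that comparison, 2 members passed 0.05 in both tools before adjustment, and each tool alone gave 0.

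Tgfb3, which rose with U46619 after 24 h, was not called with it after 48 h. It was 83.5, 153.4 and 316 FPM (lowest, median and highest, n = 10) in control, and 134, 106, 225, 181.1 and 114 FPM with U46619 (replicates 1 to 5). With EGF+U46619 the values were 133, 68.2, 155.9, 117 and 64.9 FPM, each below the control of the same set (192, 118, 200, 316 and 143 FPM). The log2-fold changes were -0.16 ± 0.26 with U46619 (FDR = 0.746, edgeR; -0.23 without the library that stood apart) and -0.69 ± 0.27 with EGF+U46619 (FDR = 0.105, edgeR). In the EGF/U46619 batch alone, the latter was -0.87 ± 0.19 and called (FDR = 0.00531, edgeR), and it was also called without replicate 2 of the EGF/AngII batch. Without the control library that stood apart it was -0.75 ± 0.27 (FDR = 0.0816, edgeR). The difference between the time points was not tested, since the 24 and 48 h cultures were sequenced separately.

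Ltbp1 had positive log2-fold changes after 48 h that were not called. With U46619 it was 151.2, 68.6, 256, 312 and 240 FPM (replicates 1 to 5) and with EGF+U46619 158.8, 84.4, 319, 322 and 245 FPM, against 77.1, 44.7, 128, 144 and 256 FPM in the controls of these sets. Replicate 5 was the exception, with a control above both treated cultures. In the EGF/AngII batch, Ltbp1 ran from 22.3 to 328 FPM between the controls. The log2-fold changes were 1.22 ± 0.56 with U46619 (FDR = 0.198, edgeR) and 1.36 ± 0.56 with EGF+U46619 (FDR = 0.126, edgeR). Without the library that stood apart they were 1.11 and 1.25, and with mouse and batch as terms 0.58 and 0.73. With the culture set as the block in place of the mouse, the changes were 0.64 ± 0.15 (FDR = 0.00656, edgeR) and 0.80 ± 0.15 (FDR = 0.000549, edgeR), and both were called.

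Ltbp4 had negative log2-fold changes after 48 h that were not called either. With U46619 it was 90.2, 55.7, 70.9, 62.3 and 111 FPM, and with EGF+U46619 110, 43.6, 61.9, 59.2 and 71.5 FPM (replicates 1 to 5). The controls of these sets were at 99.7, 115, 100.0, 86.4 and 175.2 FPM, so that all 5 sets were lower with U46619 and 4 of 5 with EGF+U46619. The log2-fold changes were -0.48 ± 0.21 (FDR = 0.178, edgeR) and -0.65 ± 0.21 (FDR = 0.0567 from edgeR, 0.032 from DESeq2), and -0.48 and -0.64 without the library that stood apart. With the culture set as the block, they were -0.69 ± 0.16 (FDR = 0.00338, edgeR) and -0.86 ± 0.16 (FDR = 0.00028, edgeR), both called. Ltbp4 with EGF+U46619 was also called without replicate 4 or 5 of the EGF/AngII batch, without replicate 1 of the EGF/U46619 batch, and with mouse and batch as terms (-0.85 ± 0.21). The culture set fit called 2 members with U46619 (Ltbp1 and Ltbp4) and 4 with EGF+U46619 (Tgfb2, Tgfb3, Ltbp1 and Ltbp4). In the same fit the calls over all genes went from 585 to 1546 with U46619 and from 995 to 2170 with EGF+U46619.

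**Figure D5:**
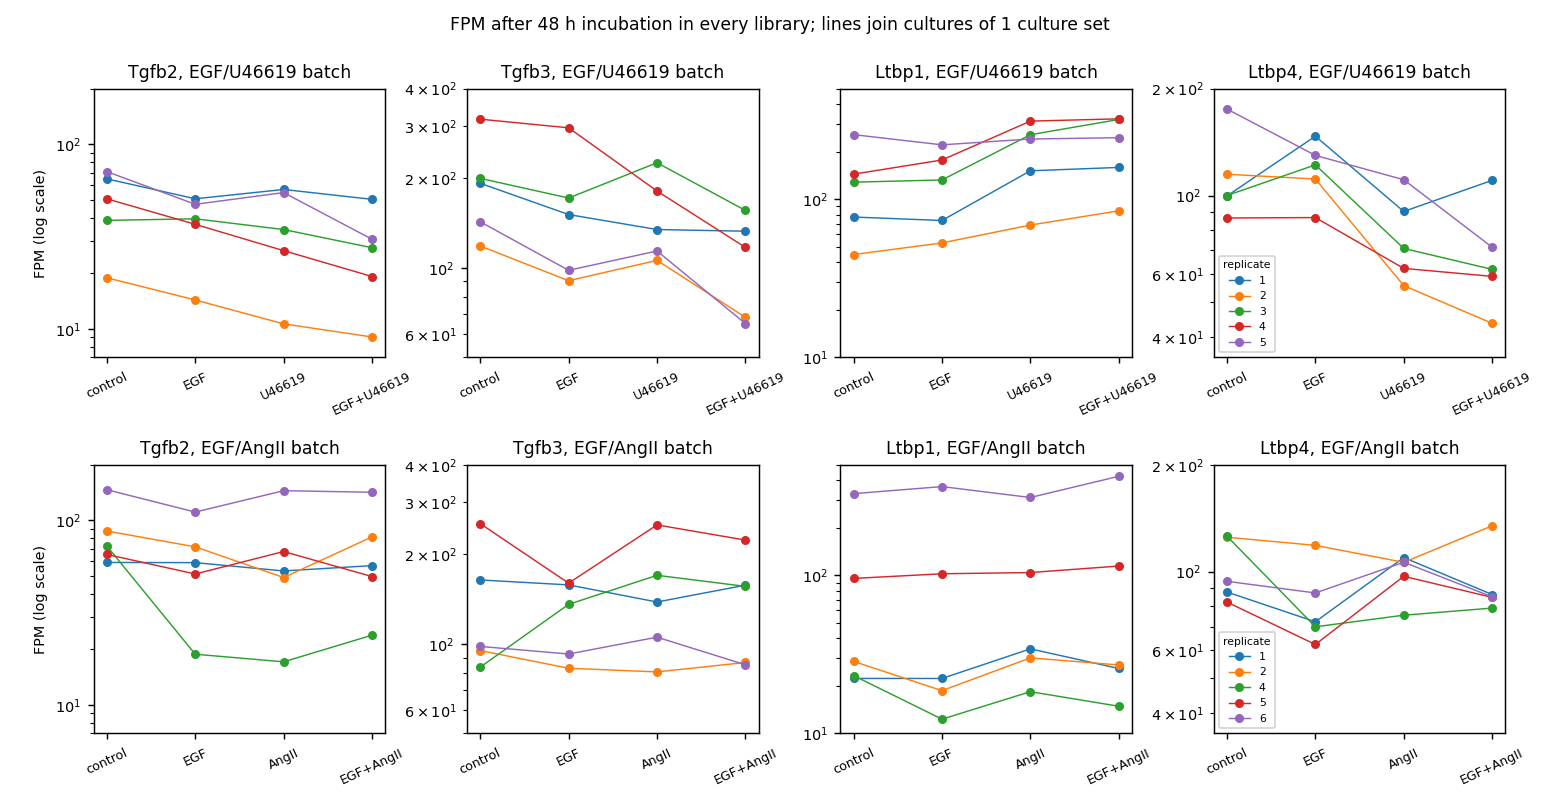
FPM (log axis) of Tgfb2, Tgfb3, Ltbp1 and Ltbp4 after 48 h in each library of the EGF/U46619 batch (top) and the EGF/AngII batch (bottom), with a line for each culture set of 4 groups. In the top row the lines of Tgfb2 and Tgfb3 end lower with EGF+U46619 than in control in 5 of 5 sets, and in the bottom row the control of replicate 4 stands apart from the other cultures of its set for Tgfb2.

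The other members were not called at 48 h. The fibroblast sum was 861 to 3540 FPM in the 48 h controls of both batches. It was 618 to 2405 FPM with U46619, which was in the EGF/U46619 batch alone. In the fit, 2 of 8 fibroblast markers were called lower with U46619 (median log2-fold change -1.24). The endothelial sum was 18.1 to 2326 FPM in the same controls and 16.2 to 909 FPM with U46619. Of 5 endothelial markers tested, 0 were called (median log2-fold change -1.675). These ranges set unlike culture sets side by side, and the part of these sums in the 48 h results was not tested. Ltbp2, Ltbp3, Tgfbr3 and Smad7, which were called with U46619 after 24 h, had log2-fold changes of -0.07 ± 0.28, -0.20 ± 0.16, -0.01 ± 0.27 and -0.18 ± 0.24 with U46619 after 48 h. Without the control library that stood apart these were 0.21 ± 0.22, -0.11 ± 0.15, -0.14 ± 0.23 and 0.005 ± 0.20, so that the sign of Ltbp2 and Smad7 turned. EGF, AngII and EGF+AngII called 0 members and 0% of all genes each. Of these, EGF had 1 member past 0.05 in both tools before adjustment, and AngII and EGF+AngII had 0, while edgeR alone and DESeq2 alone gave 0 for each. Tgfb2 had the lowest p with EGF (log2-fold change -0.46 ± 0.21, p = 0.0334 and FDR = 1, edgeR), and it was lower in 9 of 10 culture sets. The value for EGF was -0.36 ± 0.23 in the EGF/U46619 batch alone and -0.67 ± 0.27 in the EGF/AngII batch alone, and -0.40 ± 0.21 without the control library that stood apart. Leaving out its whole culture set gave -0.31. EGF+U46619 against U46619 and the interaction gave 0 members, 0% of all genes and 0 members past 0.05 in both before adjustment, with 0 by each tool alone. EGF+U46619 against EGF gave 0 members where 6.68% of all genes were called, with 2 members past 0.05 in both before adjustment and 0 by each tool alone. In that comparison Ltbp1 was higher, and Tgfb2, Tgfb3 and Ltbp4 were lower, in 5 of 5 culture sets. By the labels, replicates 1 and 4 of these sets share mouse 7. With the culture set as the block, Ltbp1 (0.90 ± 0.15; FDR = 0.000155, edgeR), Tgfb3 (-0.59 ± 0.16; FDR = 0.0106, edgeR) and Ltbp4 (-0.71 ± 0.15; FDR = 0.00202, edgeR) were called, while the calls over all genes went from 699 to 1905.

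The genes that surround these members in the pathway were followed in 3 lists. Of 30 genes listed under storage and activation of the ligand, 24 were tested with EGF+U46619 after 24 h. Among these, 15 were called, 4 higher and 11 lower, where 44.6% of all genes were. Their median log2-fold change was -0.56 against 0.02 over all genes. The list mixes genes of different roles, and Dcn in it is also a fibroblast marker. These counts therefore do not measure storage or activation. Thbs1 (thrombospondin 1, which can activate latent TGF-beta) rose from 2038 ± 695 to 6530 ± 1693 FPM (mean ± SD of 6 mice), a log2-fold change of 1.70 ± 0.21 (FDR = 7.63e-07, edgeR). Lrrc32, which anchors latent TGF-beta at the cell surface, rose from 197 ± 80.7 to 666 ± 370 FPM (1.66 ± 0.24, FDR = 3.63e-06, edgeR). Aspn, a leucine-rich proteoglycan of the matrix, fell from 21.2 ± 13.4 to 1.72 ± 0.88 FPM (-3.48 ± 0.44, FDR = 8.23e-07, edgeR). Mfap4, a protein of microfibrils, had a log2-fold change of -3.47 ± 0.46 (FDR = 1.57e-06, edgeR). Its level was low, at 14.2 ± 24.9 FPM in control, with an SD above the mean, and 0.96 ± 1.68 FPM with EGF+U46619. Thbs1 and Lrrc32 were also called with EGF+U46619 after 48 h, at 1.08 ± 0.19 (FDR = 0.000627, edgeR) and 0.99 ± 0.28 (FDR = 0.0279, edgeR), and so was Mfap4, at -2.05 ± 0.62 (FDR = 0.0382, edgeR), while Aspn was not (-2.85 ± 0.92, FDR = 0.0503, edgeR). U46619 alone called 14 of the 24 genes after 24 h, 4 higher and 10 lower, where it called 37.4% of all genes.

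Of 29 tested genes of signal transduction and feedback, 14 were called with EGF+U46619 after 24 h, 12 higher and 2 lower, a share near the 44.6% of all genes, with a median log2-fold change of 0.15 against 0.02 over all genes. Nedd4l, a ubiquitin ligase that acts on SMAD proteins, rose from 27.5 ± 9.29 to 57.5 ± 23.3 FPM (1.02 ± 0.17, FDR = 2.17e-05, edgeR). Skil, a co-repressor of SMAD proteins, rose from 34.0 ± 20.4 to 59.0 ± 16.5 FPM (0.96 ± 0.23, FDR = 0.00102, edgeR). The lower genes were Acvrl1, an endothelial type I receptor (-0.55 ± 0.15, FDR = 0.00426, edgeR), and Ski, the relative of Skil (-0.34 ± 0.14, FDR = 0.0476, edgeR). After 48 h, Nedd4l was called again with EGF+U46619 (0.79 ± 0.20, FDR = 0.0132, edgeR).

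Of 31 tested genes known as targets of TGF-beta, 19 were called with EGF+U46619 after 24 h, 11 higher and 8 lower, beside 44.6% of all genes, and the median log2-fold change was 0.095 against 0.02 over all genes. Spp1 (osteopontin) rose from 38.8 ± 43.5 to 286 ± 184.8 FPM (3.23 ± 0.73, FDR = 0.000741, edgeR). Eln (elastin) was 78.3 ± 74.8 FPM in control and 63.9 ± 140 FPM with EGF+U46619, with a log2-fold change of -2.09 ± 0.59 (FDR = 0.00516, edgeR) that allows for the mouse, and Igfbp3, an IGF binding protein, of -1.86 ± 0.37 (FDR = 0.000219, edgeR). After 48 h with EGF+U46619, 8 of 23 genes of storage and activation, 4 of 29 of signal transduction and 9 of 31 targets were called, where 9.49% of all genes were.

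Some members varied together within mice after 24 h. Over the 42 libraries of 24 h, with log2(FPM + 0.5) centred on each mouse, Pearson's r was 0.93 between Ltbp3 and Ltbp4, 0.86 between Tgfb3 and Ltbp2, 0.86 between Tgfb3 and Ltbp1, and -0.78 between Tgfbr3 and Smad7. Tgfb1 had values from -0.32 to 0.02 with the other members, and Tgfbr1 from -0.41 to 0.33. Over the 40 libraries of 48 h, values were centred on the culture set, and the control library that stood apart was kept. There r was 0.69 between Ltbp3 and Ltbp4 and -0.62 between Tgfbr3 and Smad7. In contrast, r was -0.23 between Tgfb3 and Ltbp2 and -0.52 between Tgfb3 and Ltbp1. How far that library shaped these values was not tested. Libraries share the mouse and the treatment, so these values describe the 7 groups as much as the genes. Among 10161 other genes, the closest to Ltbp1 was Tgm2 (r = 0.94), which encodes a transglutaminase that cross-links matrix proteins. The closest to Smad7 was Ddah1 (r = 0.92), which was also the closest to Ltbp2 (r = 0.93). For Tgfb3 they were Lrrc27 and Actn4 (r = 0.94 each), for Tgfbr3 Zcchc24 (r = 0.95) and Lama2 (r = 0.91), for Ltbp3 Clstn1 (r = 0.97) and for Ltbp4 X2700081O15Rik (r = 0.97) and Plcg1 (r = 0.96). Tgfbr1 was closest to Spred1 (r = 0.95), which encodes an inhibitor of the RAS and ERK pathway.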

How the data were processed

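RNA of 82 aVSMC cultures was sequenced as poly(A)-enriched paired-end libraries. Alignment (HISAT2 2.1.0, mm10) and counting on exons (featureCounts, multi-mapping reads included) were done by the authors, so genes with near-identical copies can share reads. No strand setting is stated. The deposited values are these counts per Ensembl gene, whole numbers without normalization, and 0 columns of values were left unused.

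The members, lists and tests were chosen with earlier results of these data known. Members were matched by symbol. Positions and exon lengths came from GENCODE on GRCm38, promoters from RefSeq (GRCm38.p6, 7 of 10 members). Counts were fitted separately for 24 and 48 h with the mouse of the labels and the treatment as terms, in edgeR 4.0.16 (quasi-likelihood test after filterByExpr, TMM) and DESeq2 1.42.0 (Wald test on genes with a count), under R 4.3.3. A gene was called at an FDR (Benjamini-Hochberg) under 0.05 in both, the same sign, at least 5 FPM in 1 group compared and after passing filterByExpr at both time points (14528 genes). Background percentages refer to such genes with at least 5 FPM. Standard errors are those implied by edgeR's statistic. Differences per mouse or culture set used log2(FPM + 0.5). The genes named are the members, the 2 largest increases and decreases of each pathway list called with EGF+U46619 after 24 h, and, for likeness, the 2 genes with the highest r to a member; for some members 1 of the 2 is given, and those of Tgfb1 and Tgfb2 are not. Of the genes so chosen, 1 is not reported here. Python 3.11.15, pandas 2.3.3 and Matplotlib 3.10.9 were used for summaries. The scripts were tested on simulated counts.

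The pairing was checked from the correlation of deviations from group means. After 24 h it exceeded 0.1 in 126 of 126 pairs of cultures of a mouse. After 48 h it did so in 57 of 60 pairs within a culture set, and the other pairs involve the control library that stood apart. Labels number 5 mice for the 10 culture sets of 48 h, whereas the methods give each replicate its own mouse. The labels were followed here. Further alternatives were edgeR alone, DESeq2 alone, size factors of DESeq2 used in edgeR, a likelihood ratio test in edgeR, no filter on low counts, no FPM minimum, the culture set as the block, no block, only the groups compared, leaving out each replicate, batch terms or 1 batch, unscaled library sizes, a pseudocount of 5, shares without length and, chosen after seeing the data, the library that stood apart left out.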

Additional observations from a re-analysis of the deposited data

Results flagged for a closer look

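In 130 combinations of member and group, the highest or lowest library was set against the others, and 6 lay further out than a Dixon test at the 95% level allows, where chance flags about 1 in 20 groups. After 24 h, 3 of them belonged to mouse 3. Tgfbr3 was 134 FPM in its U46619 culture against 31.3 to 52.3 FPM in the others. Ltbp2 was 1.89 FPM in its EGF+U46619 culture (others 40.1 to 198 FPM) and 0.679 FPM in its EGF+AngII+U46619 culture (others 38.5 to 198 FPM). Tgfbr1 was 68.2 FPM in the EGF+U46619 culture of replicate 5 against at most 37.8 FPM. After 48 h, Ltbp3 was 428 FPM in replicate 1 of U46619 against at most 289 FPM, and Ltbp4 was 135 FPM in replicate 2 of EGF+AngII against 78.9 to 86.2 FPM. The cause of these values was not tested.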

How the results depend on the processing

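All 27 called pairs of member and comparison kept their sign under every alternative fitted, and 6 were called in each of them. Without the replicate block for mouse, the members called after 24 h were 1 with U46619 (7 with it), 2 with EGF+U46619 (7), 3 with EGF+AngII+U46619 (7) and 0 between EGF+U46619 and EGF (5), and after 48 h 0 with EGF+U46619 (1), with edgeR and DESeq2 as before. Over all genes these calls went from 3893 to 1037, 4666 to 1826, 4849 to 2143 and 1871 to 105 after 24 h, and they fell after 48 h as well. With only the groups compared in the fit, 4 were called with EGF+AngII+U46619 and 3 between EGF+U46619 and EGF after 24 h. Tgfbr1 with EGF+AngII after 24 h was gained with DESeq2 alone, with edgeR's likelihood ratio test and with no filter on low counts (1 member each), and leaving out 1 replicate gave 0 to 1. Leaving out 1 replicate gave 3 to 7 members between EGF+U46619 and EGF after 24 h and 0 to 2 with EGF+U46619 after 48 h. In the latter comparison, 2 were called with DESeq2 alone and 2 with the likelihood ratio test, 4 in the EGF/U46619 batch alone and 4 with the culture set as the replicate block. That block gave 2 with U46619 after 48 h and 3 between EGF+U46619 and EGF, where the EGF/U46619 batch alone gave 1. The numbers of other comparisons stayed within 1.5 times. Levels with unscaled library sizes, differences with a pseudocount of 5 and shares without length moved by less than 1 SD between replicates. The cause of these shifts was not tested. Ltbp2 in mouse 3 rested on as few as 9 counts, which limits its precision there.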
